A study of Mus musculus with 12 samples.

Results

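The type 2 arm of skin immunity was followed through 10 genes in RNA-seq of mouse skin. The genes were Tslp, Crlf2, Il1rl1, Il4, Il13, Il4ra, Il13ra1, Il13ra2, Postn and Ear1. They were taken by name, by matching each gene ID without its version to a symbol, and all 10 were found among the 47643 gene IDs of the 12 deposited tables.

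TSLP and IL-33 are alarmins, cytokines that epithelial cells release when a barrier is damaged. TSLP binds CRLF2 paired with the IL-7 receptor chain, and IL-33 binds ST2, the product of Il1rl1, paired with IL1RAP. Both act on innate lymphoid cells, dendritic cells, mast cells and basophils, and type 2 lymphocytes then make IL-4 and IL-13. These cytokines signal through IL-4Rα and onward through STAT6. IL-4Rα pairs with the common gamma chain, mainly on blood cells, or with IL-13Rα1, on keratinocytes and fibroblasts among others. IL-13Rα2 binds IL-13 tightly and is best known as a decoy, periostin (Postn) is a matrix protein induced by IL-13, and Ear1 encodes an eosinophil-associated ribonuclease.

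All libraries came from 10-week-old C57BL/6 mice, in 4 groups of 3: whole skin and epidermis, each from wild type (WT) mice and from mice with a conditional knockout (KO) of the metalloprotease gene Adam17. The KO mice carried floxed Adam17 alleles and Cre recombinase under Sox9 control. Sox9 marks cells of the hair follicle and their descendants, so cells without a Sox9 history keep Adam17. Whether WT mice carried floxed alleles or Cre, and whether the 3 libraries of a group are 3 mice, is not stated in the labels. The p-values therefore rest on a spread between libraries that may be technical.

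Libraries held 12208522 to 16743144 counts, and 3 reads amounted to 0.179 to 0.246 CPM (counts scaled to a common library size). Adam17 lay at 72.3 to 96.3 CPM in WT skin against 41.6 to 52.5 in KO skin, and at 78.9 to 86.4 in WT epidermis against 47.3 to 58.1 in KO epidermis. All 10 keratinocyte markers had reads in each library. The dermal collagen gene Col1a1 was low in WT epidermis, at 0.890 ± 0.707 CPM (SD, n = 3), and higher in KO epidermis, at 14.6 ± 6.66 CPM. No WT library held Y-linked reads, Skin KO 2 also held 0, and the other 5 KO libraries held 213 to 1781, so male RNA and genotype cannot be fully told apart. In whole skin the tissue makeup also moved with genotype. Skeletal muscle markers summed to 9910 to 74213 CPM in WT, highest in Skin WT 1, and to 683 to 3424 in KO, adipocyte markers to 1625 to 2053 and 173 to 355, and endothelial markers to 129 to 141 and 39.0 to 49.7, with all 8 markers of each list lower in KO. Keratinocyte markers summed to 31462 to 38808 CPM in WT skin and 47191 to 56688 in KO skin. The part of this shift in the skin results was not tested.

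Levels below are CPM after TMM scaling over all 12 libraries. Genotype was tested within each tissue with edgeR's quasi-likelihood test, adjusted by Benjamini-Hochberg over all genes tested, with a threshold of 0.05. In whole skin 5 of the 8 members with enough reads to test were higher in KO (Crlf2, Il4ra, Il13ra2, Postn and Ear1) and 0 lower. The background in that comparison was 45.5% of genes called, 22.2% higher and 23.3% lower, so a call is common among all genes. In epidermis 5 of 7 were higher (Il4ra, Il13ra1, Il13ra2, Postn and Ear1) and 0 lower, against 51.5% of genes called, 26.2% higher and 25.3% lower. Ear1 passed the filter on low counts only through its KO libraries. Il4ra, Il13ra2, Postn and Ear1 were called in both tissues. The share of all genes called in both was not taken, so this overlap cannot be set against a background. In bulk tissue, more cells of a type and more RNA per cell cannot be told apart.

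**Figure D1:**
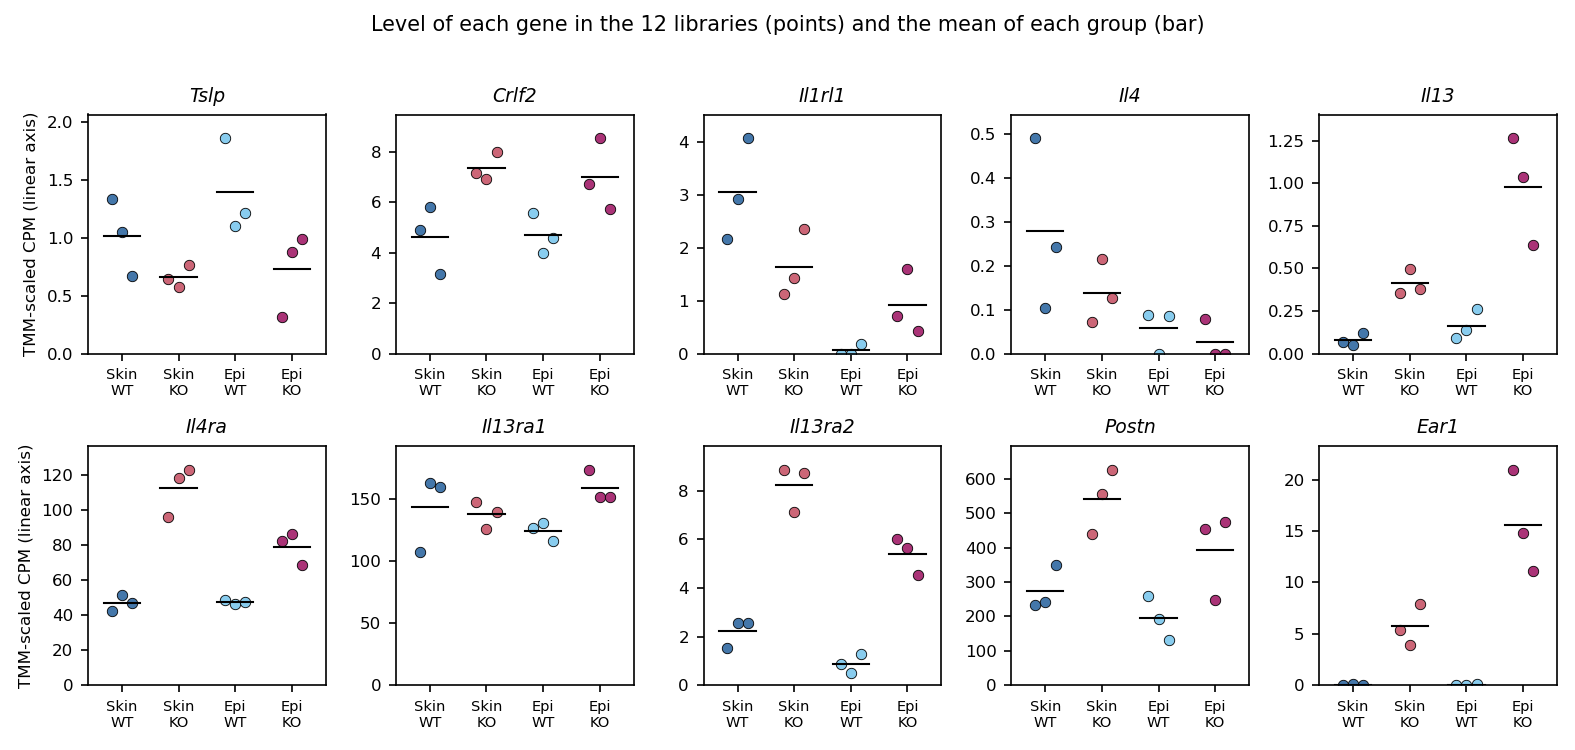
TMM-scaled CPM of each of the 10 genes on a linear axis that starts at 0, with 1 point per library and a bar at the mean of each group. Il4ra, Il13ra2, Il13 and Ear1 were higher in every KO library than in every WT library of the same tissue, while Tslp and Il4 had their group means lower in KO.

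Tslp, the epithelial alarmin, was not called in either tissue, and no group mean was higher in KO. Its level in WT skin was 1.33, 1.04 and 0.668 CPM in replicates 1 to 3, and in KO skin 0.639, 0.571 and 0.761. In WT epidermis it was 1.85, 1.10 and 1.21 CPM, and in KO epidermis 0.316, 0.877 and 0.989. The skin groups overlapped in 1 WT library, and all epidermal KO libraries lay below the WT ones. The log2 difference was -0.52 in skin (SE 0.36, 95% interval -1.38 to 0.33, edgeR adjusted p = 0.278) and -0.89 in epidermis (SE 0.46, interval -1.94 to 0.16, adjusted p = 0.136), neither past the threshold. With 4 to 21 reads per library the counts are sparse. The upper end of the skin interval excludes a rise of the size seen for Il4ra, and that of the epidermis does so too.

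Of 12 genes listed as inducers of Tslp (proteases, receptors and transcription factors), 6 were higher and 2 lower in KO skin, against 22.2% and 23.3% of all genes. The median log2 difference was 0.25 over the list against -0.00 over all genes tested. Nfkb1, a subunit of NF-κB, was higher by 1.00 (SE 0.16, adjusted p = 0.00294), and Trpv3, a heat-gated channel of keratinocytes, by 1.27 (SE 0.20, adjusted p = 0.00300). The desquamation protease Klk7 was higher by 0.90, whereas Klk5, known to activate the receptor PAR2 upstream of Tslp, fell by 0.91. In KO epidermis 3 were higher and 3 lower, against 26.2% and 25.3% of all genes (median -0.11 against 0.00). There Klk5 fell by 2.27 on the log2 scale (SE 0.25, adjusted p = 1.81e-04) and Prss8, a membrane protease, by 1.01, while Nfkb1 (1.09) and Trpv3 (1.02) were again higher.

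The genes whose level followed that of Tslp most closely over the 12 libraries, by Pearson correlation of log2(CPM + 1) among 14097 genes, were Wdr25 (0.916), Serpinc1 (0.894), Ccdc163 (0.879), Hopxos (0.864) and 1700030K09Rik (0.861). This is a description, since libraries share groups and depth. Hopxos lies antisense to Hopx, and without the strand setting of the counting their reads cannot be told apart. Wdr25, for example, was at 3.77 ± 1.10 CPM in WT skin and 2.65 ± 0.156 in KO skin, and at 4.50 ± 1.23 and 2.65 ± 0.373 in WT and KO epidermis (SD, n = 3).

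Crlf2, the chain that makes the TSLP receptor specific, was measured at 4.90, 5.80 and 3.16 CPM in WT skin and at 7.17, 6.93 and 7.99 in KO skin. In epidermis it was at 5.56, 3.998 and 4.58 CPM in WT and 6.72, 8.53 and 5.72 in KO. In both tissues each KO library was above each WT library. In skin it was 1.69-fold higher (log2 0.76, SE 0.26, adjusted p = 0.0465), a call lost in 10 of 16 alternatives, among them the fit with the replicate number as a block (adjusted p = 0.0578) and those without any 1 of Skin WT 1, Skin WT 3 and the 3 KO skin libraries (0.0609 to 0.128). In epidermis the log2 difference of 0.59 (SE 0.24, interval 0.05 to 1.12, adjusted p = 0.0654) did not pass.

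Il7r, which completes the TSLP receptor and also serves IL-7, changed more than Crlf2. It rose by 2.46 on the log2 scale in KO skin (SE 0.23, adjusted p = 4.47e-04) and by 4.22 in KO epidermis (SE 0.39, adjusted p = 8.44e-05). Measured per length, as deposited TPM (transcript abundance scaled by length and library), Crlf2 stood at 5.64 and Il7r at 1.38 in WT skin, and at 8.59 and 6.88 in KO skin. In epidermis the means were 3.82 and 0.283 TPM in WT and 5.83 and 5.33 in KO. The ratio of the means was thus 4.08 and 1.25 in skin and 13.5 and 1.09 in epidermis. Markers of T cells, which also carry Il7r, were called higher in 4 of 10 in KO skin and 5 of 10 in KO epidermis, with 1 lower in each. Among all genes tested 22.2% were higher in skin and 26.2% in epidermis. The T cell markers summed to 151 to 171 CPM in WT skin, 140.0 to 189.9 in KO skin, 183 to 211 in WT epidermis and 175 to 257 in KO epidermis. Their part in the difference was not tested.

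Il1rl1 (chr1:40429570-40465415, plus strand, GRCm38) encodes ST2, the receptor of IL-33, and was the only member whose genotype effect differed between the tissues past the threshold. RefSeq places starts of the gene at 2 sites, and the 250 bases before each are printed to show what the annotation holds there. Capitals mark AGATAA, a form of the GATA motif, searched on both strands. Other forms of it, such as TGATAA, were not searched and are not marked. The first lies at chr1:40429320-40429569 and the second at chr1:40439379-40439628, both on the plus strand of GRCm38.p6.
Il1rl1, first start: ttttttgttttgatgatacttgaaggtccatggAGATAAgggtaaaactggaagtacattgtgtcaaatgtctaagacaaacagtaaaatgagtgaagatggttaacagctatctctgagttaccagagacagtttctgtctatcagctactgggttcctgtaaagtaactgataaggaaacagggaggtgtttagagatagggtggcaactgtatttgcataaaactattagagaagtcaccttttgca
Il1rl1, second start: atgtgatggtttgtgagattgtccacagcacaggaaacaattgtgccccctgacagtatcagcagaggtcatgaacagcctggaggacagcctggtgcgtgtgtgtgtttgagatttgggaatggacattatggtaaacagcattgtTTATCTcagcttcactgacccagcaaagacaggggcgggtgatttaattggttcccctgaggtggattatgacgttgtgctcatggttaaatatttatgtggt
AGATAA stands 217 to 212 bases before the first start and, on the other strand, 103 to 98 bases before the second. It occurs in 9.99% of the 32851 promoters of this length in the table. The tables count reads per gene, so they do not say which start was used.

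In WT skin Il1rl1 was at 2.169, 2.93 and 4.07 CPM and in KO skin at 1.14, 1.43 and 2.35. WT epidermis held 0, 0 and 2 reads in replicates 1 to 3, and KO epidermis 9, 20 and 6 reads, or 0.711, 1.59 and 0.424 CPM. The skin groups overlapped in 1 library on each side, with the mean lower in KO, and the epidermal groups did not overlap, with the KO higher. In skin the log2 difference was -0.80 (SE 0.36, interval -1.65 to 0.06, adjusted p = 0.113). With the replicate number as a block it was -0.82 and passed (adjusted p = 0.0495).

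In epidermis Il1rl1 fell under the filter on low counts. The reads per total were 16.6 times as many in KO (95% counting interval 4.27 to 143), and without the filter edgeR gave an adjusted p of 0.00574. WT epidermis lay below WT skin by 5.64 on the log2 scale (SE 0.73, adjusted p = 8.43e-04), against a background of 42.9% of genes called between the WT tissues, 25.3% lower. Il1rl1 entered that test through the WT skin libraries alone, so only a lower call was open to it. The size of 5.64 depends on the prior count of the fit. The tissue by genotype term was 4.75 (SE 1.05, interval 2.45 to 7.06, adjusted p = 0.0130), in a comparison where 16.5% of genes were called, 10.1% higher and 6.36% lower. It passed in all 20 alternatives run for it, between 4.09 and 7.61. Since WT epidermis held so few reads, its size depends on the prior count of the fit.

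Mast cells and basophils are known to carry ST2, and their markers stood in the same order of groups. The 12 genes summed to 104 to 189 CPM in WT skin, 50.8 to 92.6 in KO skin, 6.71 to 11.1 in WT epidermis and 11.2 to 33.4 in KO epidermis. In KO skin 4 of the 9 tested were lower and 1 higher, against 23.3% and 22.2% of all genes. The higher one was Fcer1a, the IgE receptor chain (1.42, adjusted p = 0.0320, named after its value was seen). Mrgprb2, a receptor through which peptides and drugs activate mast cells, fell by 4.54 (SE 0.38, adjusted p = 3.20e-04), from 269 reads in WT skin to 9 in KO skin. Mcpt4, a chymase of connective tissue mast cells, fell by 1.24 (SE 0.33, adjusted p = 0.0195) and Cma1, another, fell by 1.22. These last 2 calls were lost in 5 and 4 of 16 alternatives, for Mcpt4 with a log2 value down to -0.70 and an adjusted p of up to 0.267 without the 2 KO libraries with Y-linked reads. Both were lost without Skin WT 3 or Skin KO 3, and Mcpt4 without Skin KO 1. Between the WT tissues 6 of the 7 markers tested were lower in epidermis, where 25.3% of all genes were lower. Of those 6, Cpa3, Mcpt4, Cma1 and Tpsb2 had at most 1 read in WT epidermis and entered the test through WT skin alone. Their direction was thus fixed by the filter, and their sizes, 10.3 for Mcpt4 and 9.88 for Cma1, depend on the prior count. Mrgprb2 was the exception (0.54, SE 0.31, edgeR adjusted p = 0.187). Which cells held its reads in skin was not tested.

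In epidermis the marker sum was made of other genes. Mrgprb2 had 292 reads in WT epidermis, or 5.21 to 10.3 CPM, most of the sum there, and 4 in KO epidermis, so it fell by 6.11 (SE 0.54, adjusted p = 6.89e-05). Cpa3, Mcpt4 and Cma1 had 1 read each and Tpsb2 0 in WT epidermis, and 4, 11, 10 and 4 in KO epidermis. Kit and Hdc, which other cells also express, were higher in KO epidermis by 2.74 and 6.12. Epidermis KO 2 held the most Il1rl1 of its group and the largest sums not only of mast cell markers but also of fibroblast (148 CPM against 107 and 85.5), endothelial (14.1 against 4.82 and 7.63) and muscle markers (28.0 against 13.0 and 9.75). Without that library the tissue by genotype term of Il1rl1 was 4.09 (adjusted p = 0.0361). The part of these cells, and of dermal RNA, in the Il1rl1 values was not tested.

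**Figure D2:**
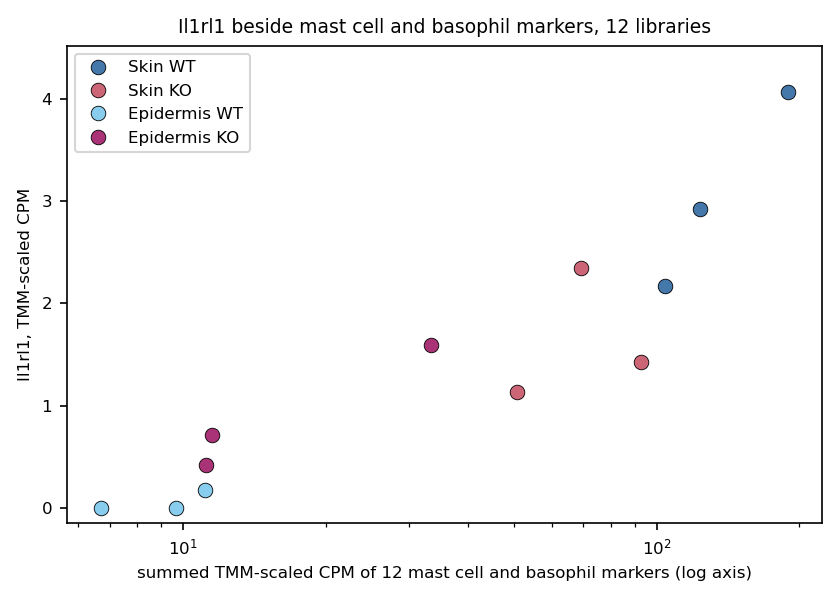
Il1rl1 in TMM-scaled CPM (linear axis) against the summed CPM of 12 mast cell and basophil markers (log axis), 1 point per library. WT epidermis sits at the lower left with 0 to 0.173 CPM of Il1rl1, and WT skin at the upper right with 2.169 to 4.07.

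Il33, the ligand of ST2, and Il1rap, its partner chain, were expressed in all groups. Il33, named for its place in the pathway, was at 52.4 ± 21.8 and 51.6 ± 10.6 CPM in WT and KO skin and at 40.9 ± 1.76 and 41.7 ± 18.3 in WT and KO epidermis (SD, n = 3), with adjusted p of 0.864 and 0.918 in the 2 tissues. Il1rap was higher in KO epidermis by 0.63 (SE 0.19, adjusted p = 0.0214), a call lost in 4 of 15 alternatives (adjusted p up to 0.0754), among them those without Epidermis WT 1, Epidermis WT 3 or Epidermis KO 2.

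The cytokines IL-4 and IL-13 were near the limit of these libraries. Their genes are neighbours on chromosome 11 (Il4 at chr11:53602982-53618669 and Il13 at chr11:53631324-53634702, both minus strand). Il4 had 7, 2 and 4 reads in WT skin, 1, 3 and 2 in KO skin, 1, 0 and 1 in WT epidermis, and 1, 0 and 0 in KO epidermis. Too few for the test in any comparison, these counts gave a KO to WT ratio of 0.525 in skin with a counting interval of 0.164 to 1.48, which includes no difference. In epidermis both groups were under the limit of 3 reads, with 1 read in KO and 2 in WT. The ratio there was 0.475 with a counting interval of 0.00806 to 9.13, too wide to show a direction.

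Il13 differed the other way. It had 1, 1 and 2 reads in WT skin against 5, 7 and 6 in KO skin, and 1, 2 and 3 in WT epidermis against 16, 13 and 9 in KO epidermis. Each KO library of a tissue held more than each WT library. The ratio was 5.12 in skin (counting interval 1.69 to 20.8) and 6.02 in epidermis (2.52 to 17.4), and exact permutation over the libraries gave p = 0.1 in both, two-sided, the smallest that 3 against 3 allow. Below the filter in both tissues, Il13 received adjusted p of 0.0312 and 0.00733 from edgeR run without a filter. The 4 group means ran from 0.0812 CPM in WT skin through 0.162 in WT epidermis and 0.412 in KO skin to 0.979 in KO epidermis, and of neighbours in that order only the WT tissues overlapped.

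Other genes of type 2 lymphocytes did not move together. Of 15 markers of Th2 cells and group 2 innate lymphoid cells, 3 of the 10 tested were higher and 4 lower in KO skin, and 3 of 9 higher and 2 lower in KO epidermis. The shares over all genes were 22.2% higher and 23.3% lower in skin, and 26.2% higher and 25.3% lower in epidermis. Icos, a costimulatory receptor of activated T cells and innate lymphoid cells, rose from 0.255 ± 0.212 to 24.2 ± 8.20 CPM in skin (adjusted p = 2.43e-04) and from 0.303 ± 0.197 to 35.0 ± 11.6 in epidermis (SD, n = 3, adjusted p = 9.59e-06). Icos passed the filter on low counts only through its KO libraries in both tissues. Only a higher call was thus open to it, and the counts of higher markers are partly fixed by the filter. Gata3, the lineage factor of these cells that keratinocytes also express, fell by 1.60 in skin (SE 0.22, adjusted p = 0.00173) and fell by 1.52 in epidermis (SE 0.18, adjusted p = 2.52e-04). Areg, an epidermal growth factor receptor ligand made by innate lymphoid cells and keratinocytes, was higher by 2.56 in skin, where Hpgds fell by 0.87. In epidermis the chemokine receptor gene Ccr4 was higher by 1.72, and the cytokine receptor gene Il18r1 fell by 1.42. Il5, which sits in the same locus as Il4 and Il13, had 4 reads in KO epidermis and 0 elsewhere.

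Of the receptor chains for IL-4 and IL-13, Il4ra and Il13ra2 were called in both tissues. Il4ra (chr7:125552120-125579474, plus strand), the chain shared by both receptor types, was at 42.4, 51.7 and 46.8 CPM in WT skin and 96.0, 118 and 123 in KO skin. In epidermis it was at 48.8, 46.5 and 47.7 CPM in WT and 82.5, 86.0 and 68.5 in KO. The groups did not overlap in either tissue, and the WT tissues differed by less than their spread. Il4ra was 2.55-fold higher in KO skin (log2 1.35, SE 0.14, adjusted p = 6.38e-04) and 1.67-fold higher in KO epidermis (log2 0.74, SE 0.12, adjusted p = 0.00107). It was called in all 16 alternatives in skin and all 15 in epidermis.

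Between KO tissues Il4ra fell by 0.51 in epidermis against skin (SE 0.13, adjusted p = 0.0227), where 29.9% of genes were called, 15.9% lower. That call was lost in 5 of 14 alternatives, including those without Skin KO 2, Skin KO 3, Epidermis KO 1 or Epidermis KO 3. The difference of the 2 genotype effects was -0.53 (SE 0.18, interval -0.92 to -0.14, adjusted p = 0.0629) and did not pass, although it did with DESeq2 and without Skin KO 1.

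Il13ra1 (chrX:36112110-36171259, plus strand), the other partner chain of IL-4Rα, changed little. In WT skin it was at 107, 163 and 160.5 CPM and in KO skin at 148, 126 and 139.8. In epidermis it was at 127, 131 and 116 CPM in WT and 174, 152.4 and 151.9 in KO. The skin groups overlapped, with a log2 difference of 0.04 (SE 0.18, interval -0.38 to 0.45, adjusted p = 0.885). In epidermis the groups did not overlap and the gene was 1.29-fold higher (log2 0.37, SE 0.11, adjusted p = 0.0245), a call lost in 8 of 15 alternatives, with an adjusted p of up to 0.239 (the Y-linked share as a covariate). These include the fits without Epidermis WT 1, Epidermis WT 3 or any 1 of the 3 KO libraries.

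Per length, Il13ra1 was the more abundant chain. Its mean TPM was 58.2 ± 20.3 in WT skin and 52.3 ± 4.69 in KO skin, beside 16.7 ± 3.69 and 35.1 ± 4.85 for Il4ra (SD, n = 3). The ratio of the means was 3.48 in WT skin and 1.49 in KO skin, and 2.87 and 2.36 in WT and KO epidermis. Il2rg, the common gamma chain, was higher by 1.02 on the log2 scale in KO skin (SE 0.28, adjusted p = 0.0229), and 0.46 in epidermis, which did not pass (adjusted p = 0.0723). The skin call was lost in 4 of 16 alternatives (adjusted p up to 0.0852), those without Skin WT 1, Skin WT 2, Skin KO 2 or Skin KO 3.

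**Figure D3:**
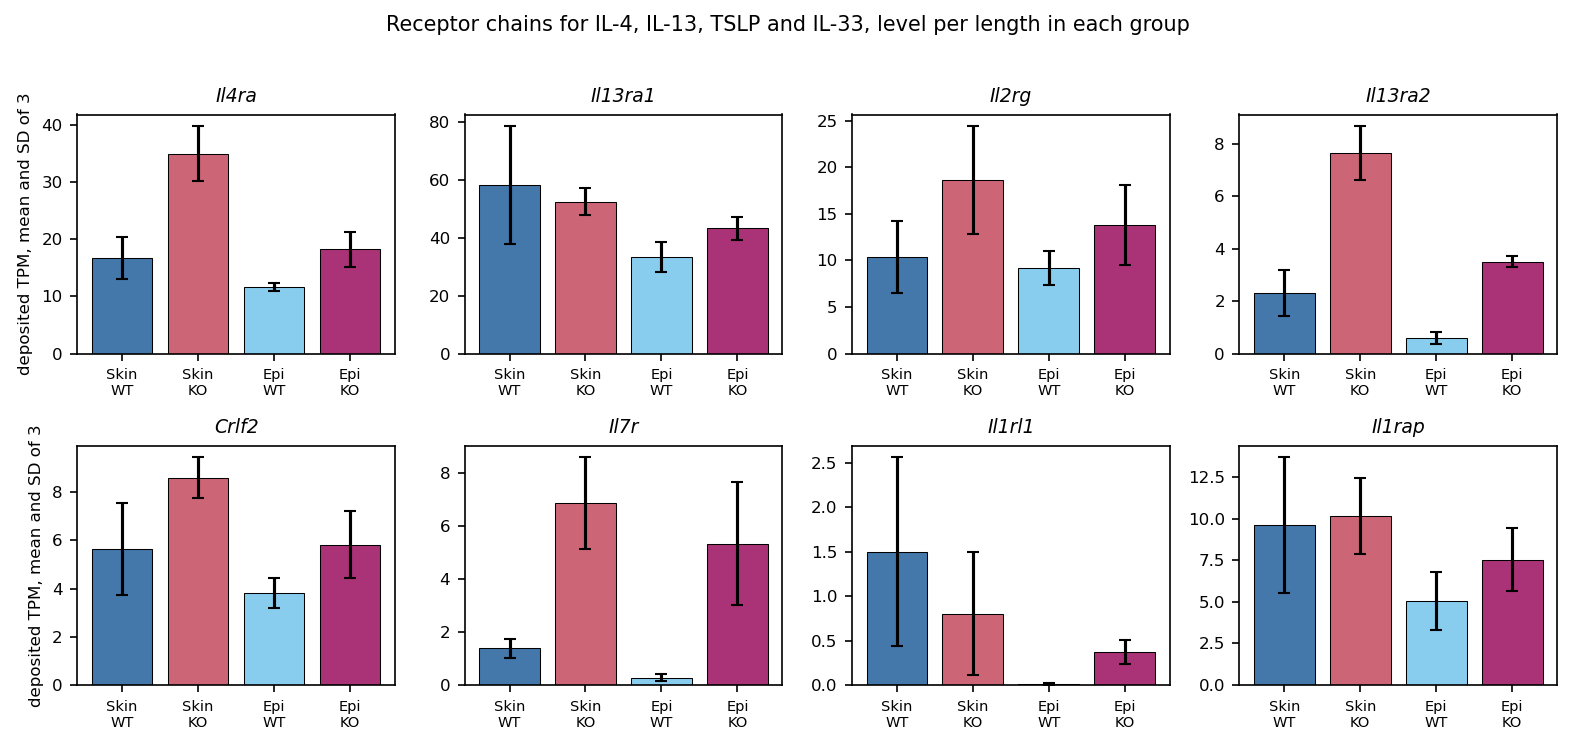
Mean deposited TPM of 8 receptor chains in each group, with bars from 0 and error bars of 1 SD over 3 libraries. Il4ra, Il13ra2 and Il7r stand higher in KO than in WT in both tissues, and Il13ra1 is the most abundant chain in each group.

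Il13ra2 (chrX:147383476-147429192, minus strand), the decoy receptor, changed more than the other chains for IL-4 and IL-13. Its promoter is printed because the gene was called in both tissues, with matches of 4 motifs in capitals. The 250 bases before the RefSeq start lie at chrX:147429193-147429442 on the minus strand of GRCm38.p6.
Il13ra2: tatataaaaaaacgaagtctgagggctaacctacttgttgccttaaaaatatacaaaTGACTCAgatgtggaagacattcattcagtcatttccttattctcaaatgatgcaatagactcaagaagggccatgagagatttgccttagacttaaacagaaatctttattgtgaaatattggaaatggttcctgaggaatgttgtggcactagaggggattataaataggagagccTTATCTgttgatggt
The motifs searched on both strands were that of STAT6, TTCNNNNGAA, that of STAT3 and STAT5, TTCNNNGAA, that of AP-1, TGANTCA, and the GATA motif shown for Il1rl1. No match of one overlapped another here. AP-1 matched 193 to 187 bases before the start, as in 6.75% of promoters, and GATA 15 to 10 bases before it, on the other strand. STAT6 matched in 5.85% of promoters and STAT3 and STAT5 in 7.02%. Of the 9 members with a promoter in the table (12 promoters), STAT6 matched at Il4 alone, and STAT3 and STAT5 at none. These are matches of letters in a window, not sites.

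In WT skin Il13ra2 was at 1.54, 2.56 and 2.55 CPM and in KO skin at 8.87, 7.14 and 8.75. In epidermis it was at 0.883, 0.483 and 1.30 CPM in WT and 6.01, 5.66 and 4.52 in KO. All 4 groups were apart, in the order KO skin, KO epidermis, WT skin, WT epidermis. The gene was 3.94-fold higher in KO skin (log2 1.98, SE 0.25, adjusted p = 0.00118) and 6.20-fold higher in KO epidermis (log2 2.63, SE 0.36, adjusted p = 5.06e-04). It was called in every alternative of both comparisons, including Skin KO 2 alone, which held no Y-linked reads, against WT (1.80, adjusted p = 0.0381), where the lone library is taken to vary like the WT ones.

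Epidermis lay below skin for Il13ra2 in WT by 1.36 (SE 0.41, adjusted p = 0.0309) and in KO by 0.62 (SE 0.18, adjusted p = 0.0414). The first call was lost without Skin WT 2, Skin WT 3, Epidermis WT 1 or Epidermis WT 2, and the second in 10 of 14 alternatives, among them leaving out any 1 of the 6 libraries. The genotype effects did not differ past the threshold (0.73, SE 0.44, adjusted p = 0.265). Per length, the mean of Il13ra1 was 25.2 times that of Il13ra2 in WT skin and 6.84 times in KO skin, and 57.3 and 12.3 times in WT and KO epidermis.

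**Figure D4:**
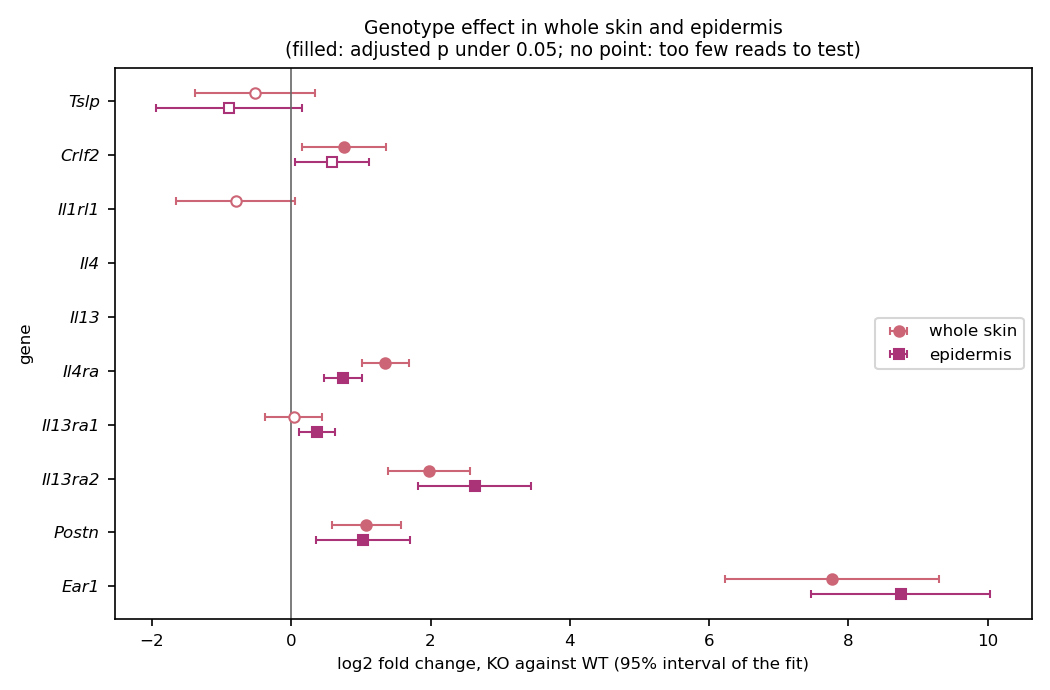
Log2 fold change of KO against WT with its 95% interval for the members tested, in whole skin (circles) and epidermis (squares), where filled points passed an adjusted p of 0.05. Ear1 lies far to the right at 7.76 and 8.75, Il13ra2 at 1.98 and 2.63, and Tslp and the skin value of Il1rl1 lie left of 0 with intervals that reach across it.

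Signalling genes below these receptors changed in both directions. Of 19 JAK-STAT and MyD88 genes 6 were higher and 3 lower in KO skin (median 0.13 against -0.00 for all genes), and 10 higher and 4 lower in KO epidermis (median 0.39 against 0.00). Of all genes tested, 22.2% were higher and 23.3% lower in skin, and 26.2% higher and 25.3% lower in epidermis. Stat6, named as the mediator of IL-4 and IL-13, was higher by 0.54 in skin (SE 0.15, adjusted p = 0.0259) and 0.60 in epidermis (SE 0.14, adjusted p = 0.00838). Stat3, used by IL-6 family and IL-20 family receptors, rose by 1.39 in skin (SE 0.13, adjusted p = 4.75e-04) and 1.91 in epidermis (SE 0.14, adjusted p = 2.82e-05).

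In skin Myd88, the adaptor below ST2 and Toll-like receptors, was higher by 0.85, and the feedback inhibitor gene Socs3 by 1.27. In epidermis Socs3 was lower, having dropped by 1.14 (SE 0.14, adjusted p = 3.12e-04), while Irak4, a kinase below MyD88, was higher by 0.97. Socs3 was nevertheless higher in epidermis than in skin, by 3.37 in WT (SE 0.18, edgeR adjusted p = 1.79e-05) and by 1.06 in KO (SE 0.12, adjusted p = 0.00222). Stat5b fell by 1.09 in skin, and Irs1, the adaptor that IL-4Rα shares with the insulin receptor, fell by 1.57 in epidermis.

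The itch receptor genes Osmr and Il31ra went opposite ways in both tissues. Osmr, the oncostatin M receptor chain, was higher by 1.40 in skin (SE 0.18, adjusted p = 0.00121) and 1.30 in epidermis (SE 0.17, adjusted p = 3.88e-04). Il31ra, which pairs with it to bind IL-31, fell by 2.82 in skin (SE 0.77, adjusted p = 0.0221), a call lost in 5 of 16 alternatives (adjusted p up to 0.0904), among them those without Skin WT 3, Skin KO 2 or Skin KO 3. It fell by 3.63 in epidermis (SE 0.55, adjusted p = 8.95e-04).

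Postn (chr3:54361109-54391037, plus strand), the matrix protein periostin, was abundant in all groups. In WT skin it was at 233, 241 and 349 CPM and in KO skin at 441, 557 and 626. In epidermis it was at 259, 192 and 130.2 CPM in WT and 454, 248 and 475 in KO. The skin groups were apart, and in epidermis 1 KO library fell within the WT range. Postn was 2.11-fold higher in KO skin (log2 1.07, SE 0.21, adjusted p = 0.00626) and 2.04-fold higher in KO epidermis (log2 1.03, SE 0.30, adjusted p = 0.0178). The skin call was lost in 1 of 16 alternatives, Skin KO 2 alone against WT (1.14, adjusted p = 0.0642).

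The epidermal call of Postn was lost in 6 of 15 alternatives. They were the deposited effective lengths as offsets (0.69, adjusted p = 0.0590), the Y-linked share as a covariate (0.62, adjusted p = 0.262), and leaving out Epidermis WT 2, Epidermis WT 3, Epidermis KO 1 or Epidermis KO 3 (adjusted p of 0.0536 to 0.0577). The effective length assigned to Postn was 1779 to 2090 bases in WT epidermis and 2381 to 2666 in the other libraries. Fibroblast markers summed to 14.2 to 21.2 CPM in WT and 85.5 to 148 in KO epidermis. In skin they summed to 2137 to 2901 CPM in WT and 776 to 1732 in KO, with 6 of 10 lower, against 23.3% of all genes. The part of fibroblasts in the Postn values was not tested.

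Other genes known to respond to IL-4 and IL-13 changed in both directions. Of the 20 listed, 4 of 18 tested were higher and 9 lower in KO skin, against 22.2% and 23.3% of all genes (median -0.81 against -0.00). In KO epidermis 8 of 13 were higher and 1 lower, where 26.2% of all genes were higher. Of those 8, Ccl11, Ccl17 and Alox15 had 0 reads and Mrc1 had 1 in WT epidermis, so they entered the test through their KO libraries alone and the count is partly fixed by the filter. Ccl22, a chemokine for CCR4-bearing T cells, rose by 2.18 in skin (SE 0.31, adjusted p = 0.00179) and 2.23 in epidermis (SE 0.23, adjusted p = 1.45e-04). Clec7a, a fungal pattern receptor of myeloid cells, rose by 3.16 in skin (SE 0.29, adjusted p = 3.94e-04) and 4.18 in epidermis (SE 0.45, adjusted p = 1.74e-04).

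Pdcd1lg2, which encodes PD-L2, was higher by 3.19 in skin. The arginase gene Arg1 fell there by 1.05 (SE 0.14, adjusted p = 0.00156). In epidermis the eosinophil attractant gene Ccl11 had 0 reads in WT and 96 in KO, at least 30.4-fold higher against 3 reads over the group, and the sterol enzyme gene Ch25h fell by 5.80 (SE 0.64, adjusted p = 1.84e-04). Markers of dendritic cells and macrophages summed to 150 to 191 CPM in WT epidermis and 260 to 574 in KO epidermis, where Lyz2 went from 0.760 ± 0.132 to 34.9 ± 21.3 CPM (SD, n = 3). In skin these markers summed to 580 to 672 CPM in WT and 507 to 683 in KO. Of the 12, 5 were called lower there and 1 higher, against 23.3% and 22.2% of all genes. The part of these cells, and of dermal RNA in the KO epidermis, in the values of the epidermal list was not tested.

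Ear1 (chr14:43818765-43875517, minus strand) went from next to no reads to a clear signal. WT skin held 0, 1 and 0 reads and KO skin 76, 54 and 125. WT epidermis held 0, 0 and 1 reads and KO epidermis 265, 186 and 157. Every KO library was far above every WT library, and all KO epidermis libraries lay above all KO skin libraries. The KO to WT ratio of reads per total was 290 in skin (counting interval 51.6 to 11500) and 578 in epidermis (103 to 22863). The fitted log2 changes of 7.76 (SE 0.65, adjusted p = 3.10e-04) and 8.75 (SE 0.57, adjusted p = 1.41e-05) depend on the prior count.

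Ear1 was called in all 16 alternatives in skin and all 15 in epidermis. In KO it was higher in epidermis than in skin by 1.44 on the log2 scale (SE 0.32, adjusted p = 0.0159), where 14.1% of genes were higher. The genotype effects themselves did not differ past the threshold (1.13, SE 2.28, interval -3.86 to 6.13, adjusted p = 0.762), an interval set by the single reads in WT.

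Ear1 belongs to a family of near-identical genes, and reads of 1 member can be assigned to another. Its coding sequence of 465 bases was 95.1% identical to that of Ear2, 94.4% to Ear10, 87.3% to Ear6 and 79.8% to Ear14, and 57.4% of its 664 stretches of 50 bases occur in a transcript of another gene. The pseudogene Ear-ps9 held the most of these (41.4%), followed by Ear2 (23.8%), Ear10 (16.9%) and the pseudogene Ear-ps2 (16.6%). Both pseudogenes had expected counts of 0 in all libraries. A stretch of the coding sequence of Ear1 and Ear2, bases 51 to 170 of each, shows how few bases tell the genes apart, with the 8 unlike bases in capitals.
Ear1: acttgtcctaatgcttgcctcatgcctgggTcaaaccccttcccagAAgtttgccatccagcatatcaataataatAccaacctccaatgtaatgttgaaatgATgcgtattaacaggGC
Ear2: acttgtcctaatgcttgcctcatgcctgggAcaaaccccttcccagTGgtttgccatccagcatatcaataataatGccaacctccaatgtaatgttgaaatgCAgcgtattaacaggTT
The Ear1 values are thus uncertain as to the gene, although Ear2 had its own course. Ear2 had 73.9 to 149 expected counts in WT skin and 41.0 to 84.0 in WT epidermis, where Ear1 had at most 1, and 70.5 to 176.6 in KO skin and 106 to 162 in KO epidermis.

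Ear2 did not pass in skin (0.44, SE 0.40, adjusted p = 0.403) and was higher in KO epidermis by 1.03 (SE 0.34, adjusted p = 0.0327). That call was lost in 6 of 15 alternatives (adjusted p up to 0.113), among them those without Epidermis WT 2, Epidermis WT 3, Epidermis KO 1 or Epidermis KO 2. Ear6 had 0 reads in WT skin and 37 in KO skin, at least 14.0-fold higher against 3 reads over the group, and 1 and 15 reads in WT and KO epidermis. Ear10 had 1 read in all, and Ear14 0.

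**Figure D5:**
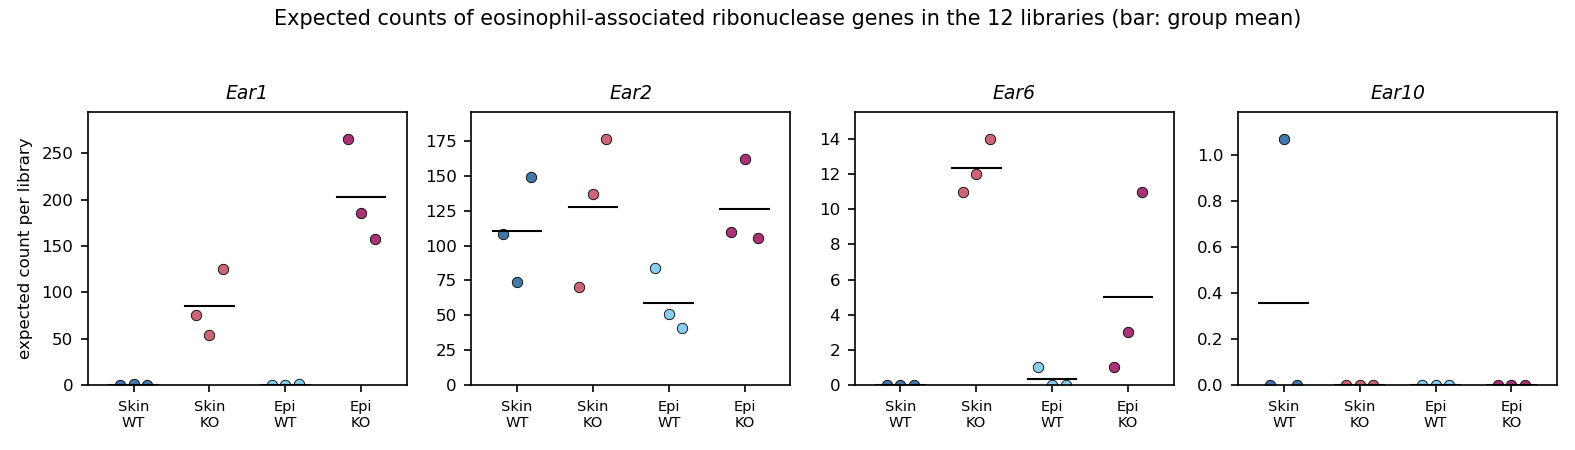
Expected counts of 4 eosinophil-associated ribonuclease genes per library on linear axes from 0, with a bar at each group mean. Ear1 is at 0 or 1 in WT and between 54 and 265 in KO, whereas Ear2 is present in all 12 libraries.

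The eosinophil markers gave a mixed picture beside Ear1. Ear6 was higher in KO skin and Ear2 in KO epidermis, whereas the granule protein genes that define the cells were close to 0. Over all 12 libraries Epx had 1 read, Prg3 1 and Prg2 4, and Siglecf had 26 reads in WT skin and 4 in KO skin, and 5 and 3 in WT and KO epidermis. Ccr3 had 36 and 16 reads in WT and KO skin and 0 and 7 in WT and KO epidermis. The 10 eosinophil markers summed to 5.01 to 10.6 CPM in WT skin and 6.17 to 12.8 in KO skin, and to 3.71 to 7.51 and 8.69 to 13.7 in WT and KO epidermis, most of it Ear2. The 8 listed neutrophil markers also had higher sums in KO, from 1.20 to 2.66 CPM in WT skin to 534 to 692 in KO skin, and from 2.69 to 3.71 to 413 to 982 in epidermis. Ly6g, Ngp and Mmp8 gave little of this, with 5, 7 and 29 reads in KO skin, 10, 12 and 39 in KO epidermis, and 0 in WT. The sums came from the other markers, among them Stfa1, Stfa2 and Cxcr2, and which cells held those reads was not tested. Among KO libraries the order differed by tissue. In KO skin replicates 1 to 3 Ear1 was at 5.39, 3.86 and 7.93 CPM beside neutrophil sums of 565, 692 and 534. In KO epidermis Ear1 was at 20.9, 14.8 and 11.1 CPM beside sums of 982, 507 and 413. Which cells held the Ear1 reads was not tested.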

How the data were processed

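Poly(A) RNA from 12 mouse libraries was sequenced after preparation with a stranded kit, per the labels' protocols. The authors deposited, for each library, an expected count, a TPM value and an effective length per gene, from RSEM. Per the submitters' processing notes, bcl2fastq 2.17 and STAR 2.5.1 were used with the mm10 genome. The annotation release, and whether counting used strand, is not given in the sources used here. Reads with several matching genes are divided by RSEM, so 8.42 to 9.98% of values in a library were fractional. The deposited TPM values were used only to compare levels between genes. FPKM values were not used here.

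Gene IDs were matched to GENCODE mouse release M21 (GRCm38), 47224 of 47643 without the version. Expected counts were rounded and tested with edgeR 4.0.16 in R 4.3.3 (TMM scaling, default filter with a minimum count of 10, quasi-likelihood test, Benjamini-Hochberg over all genes tested), which was tested on simulated data. Each comparison was fitted on its own 6 libraries, and the tissue by genotype term on all 12. Standard errors are the log2 change divided by the square root of F. Where a group held 1 to 3 reads or a gene was too low to test, the ratio of reads per TMM-scaled total is given with an exact 95% interval, and a group at 0 was set to 3 reads. Both cover counting error only. Promoters are from RefSeq (GRCm38.p6), where 9 of the 10 members matched, and transcripts from GENCODE.

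The members and the 15 gene lists tested beside them were chosen with earlier results of these data known. Up to 4 tested genes per list with the smallest adjusted p in either tissue were to be named, with exceptions said in place. Alternatives were DESeq2 1.42.0, limma-voom 3.58.1, RLE scaling, no filter, effective lengths as offsets, 1 fit of all libraries, a replicate block, the Y-linked share as a covariate, and leaving out each library. A minimum count of 5 and leaving out the KO skin libraries with Y-linked reads were added after seeing the data.

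Groups share replicate numbers. In skin, libraries of the same number deviated together across genes (correlations of 0.321, 0.304 and 0.256, against -0.438 to 0.199 for unlike numbers). This was taken as possible pairing. The main skin fit did not use it, and the replicate block is given as an alternative. The pairing is read from the data, since no label states it. In the other comparisons not every correlation of like numbers was above 0.1, and between WT tissues a pair of unlike numbers reached 0.444.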

Additional observations from a re-analysis of the deposited data

Results flagged for a closer look

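The KO effect on Il1rl1 in epidermis minus that in skin was 4.75 on the log2 scale (edgeR quasi-likelihood test of the interaction over all 12 libraries, adjusted p = 0.0130). It stands out because the test of the difference itself passed, with the mean lower in KO in skin (154 against 73 reads) and higher in KO in epidermis (2 against 35 reads). The value rests on 2 reads in WT epidermis.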

How the results depend on the processing

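Of 596 values of single members under alternatives 518 kept their direction and their side of the threshold, 44 lost the threshold, 5 gained it and 29 changed sign, the last all in values near 0 or not past the threshold. Of 1722 values of other listed genes 1638 kept theirs, 73 lost the threshold, 10 gained it and 1 changed sign. The skin calls of Myd88, Stat5b, Pdcd1lg2, Trpv3, Klk5, Klk7 and Hpgds were lost only without the 2 KO libraries with Y-linked reads (adjusted p of 0.0503 to 0.0920), and that of Arg1 only in 1 fit of all libraries (0.121). In skin 3 members were called (5 in the report) without the 2 KO libraries with Y-linked reads, and 4 to 5 when leaving out each library. In epidermis 3 (5 in the report) were called with the Y-linked share as a covariate, and 3 to 5 when leaving out each library. Between WT tissues 1 to 3 were called when leaving out each library (2 in the report), with 1 without Skin WT 2, Skin WT 3, Epidermis WT 1 or Epidermis WT 2. Between KO tissues 1 was called (3 in the report) with the replicate block, and 1 to 2 when leaving out each library. For the interaction 2 were called with DESeq2 (1 in the report), and 1 to 2 when leaving out each library. With a minimum count of 5, a setting added later, 6 members of 9 tested were called in skin and 7 of 9 in epidermis. Members with few WT reads, such as Il13, can enter at that setting through KO libraries alone, so these counts are partly fixed by the filter. The share of all genes called at that setting was not taken.

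The replicate block, used as a pairing in skin only, changed no skin call but those of Crlf2 and Il1rl1. In the other comparisons libraries share only a number, and the block took the calls of Il4ra (adjusted p = 0.0598) and Il13ra2 (0.0946) between KO tissues.

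Signs changed for values that passed no threshold, and the cause was not tested. In skin Il13ra1 (0.04) was -0.0589 in 1 fit of all libraries, -0.0790 with the Y-linked covariate, -0.0694 without the KO libraries with Y-linked reads, and -0.15 to 0.14 when leaving out each library. In epidermis the muscle gene Atp2a1 ran from -0.14 to 1.23 when leaving out each library. Between WT tissues Il4ra (-0.00) was 0.00746 with DESeq2, 0.00826 with RLE scaling, 2.17e-04 with effective lengths, 0.0216 in 1 fit, 5.31e-04 with the block and -0.0408 to 0.0551 when leaving out each library, and Crlf2 (0.00) was -0.00633 without the filter, -0.0661 with effective lengths and -0.22 to 0.18 when leaving out each library. Between KO tissues Tslp ran from -0.14 to 0.50 and Crlf2 from -0.24 to 0.0514 when leaving out each library. For the interaction Postn (0.04) was -0.00936 without the filter and -0.39 with effective lengths, and when leaving out each library Postn ran from -0.18 to 0.30, Ear1 from -0.54 to 3.17, Crlf2 from -0.30 to 0.11 and Tslp from -0.62 to 0.0473. Depth limited Il4, Il13, Tslp and, in epidermis, Il1rl1.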

Other observations

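The effective length assigned to Il1rl1, which follows the estimated mix of its transcripts, ran from 1663 to 4880 bases in WT skin, from 2015 to 4583 in KO skin, from 2737 to 4878 in WT epidermis and from 1119 to 3287 in KO epidermis. With so few reads these lengths are estimates, and the transcripts of the gene were not analysed here.

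Chil3, a lectin gene of alternatively activated macrophages among the listed IL-4 and IL-13 response genes, had 2 reads in WT skin and 58 in KO skin (ratio 33.0, 95% counting interval 8.73 to 279) and 1 and 27 reads in WT and KO epidermis (25.7, 4.23 to 1051). Ccl17, a chemokine gene with the same receptor as Ccl22, had 0 reads in WT epidermis and 157 in KO epidermis, at least 49.7-fold higher against 3 reads over the group. Both genes were chosen after their values were seen, and other genes of that list went the other way. In KO skin 9 of the 18 tested were lower and 4 higher, against 23.3% and 22.2% of all genes. There Retnla fell by 3.30 on the log2 scale, Clec10a by 1.76 and Mgl2 by 1.58, whereas in KO epidermis Mgl2 was higher by 3.02.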
